A study of Mus musculus with 4 samples.

Results

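The EGR transcription factor genes, the NAB genes that encode their co-repressors, the serum response factor gene and 3 IER genes were followed across 4 microarrays of mouse engineered muscle. The 10 genes (Egr1, Egr2, Egr3, Egr4, Nab1, Nab2, Srf, Ier2, Ier3 and Ier5) were selected by name: every probe that is not a control and whose gene name in the scanner files is one of them was taken. The choice of genes was made with earlier results of these data known. The rule gave 13 probes for the 10 genes, of 39429 probes for 31896 genes in all. Nab2, Srf and Ier5 had 2 probes each and the other 7 genes 1 probe each. The arrays were hybridised with Cy3-labelled RNA of 3D engineered muscle, a skeletal muscle tissue built in culture. The 4 groups were tissue without acute EPS at 0 min, tissue without acute EPS at 5 h, tissue at 0 min after 30 min of acute EPS, and tissue at 5 h after the same 30 min of EPS. EPS is an electrical stimulus that makes cultured muscle contract, and the tissue without it served as the negative control at each time. Each group had 1 array. The labels name mouse as the species and skeletal muscle as the tissue, and give no strain, age, genotype or cell source. No spread between tissues could therefore be estimated and no test between groups was made: a difference of at least 2-fold is counted, beside the share of all genes that reached it, and errors given with ± are those the scanner software assigned to 1 spot.

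Immediate early genes are transcribed within minutes of a stimulus from factors that the cell already holds. In the best known route, the kinase ERK phosphorylates ternary complex factors, which sit with serum response factor (SRF) on CArG boxes in promoters such as those of the Egr and Ier2 genes. EGR proteins are zinc-finger factors that bind GC-rich sites and in turn induce Nab2, whose protein binds EGR1 and EGR2 and represses their activity. In skeletal muscle, SRF also drives actin and other sarcomeric and cytoskeletal genes, and EGR3 is known for its role in the muscle spindle.

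RefSeq promoter windows on build GRCm38.p6 were listed for 7 of the 10 genes (Egr2, Egr4, Nab1, Nab2, Srf, Ier3 and Ier5), and the 250 bases upstream of each start were searched on both strands for the CArG box, for the EGR motifs GCGTGGGCG and GCGGGGGCG and for the cAMP response element TGACGTCA. A CArG box was found upstream of 2 of the 7 genes, Egr2 and Srf, and in 1.47% of all 32851 windows of that length. A gene was counted if any of its windows matched, whereas the shares are per window. GCGTGGGCG occurred upstream of Nab1 alone among the 7 (0.536% of all windows), GCGGGGGCG upstream of Nab1 and Srf (2.57%), and TGACGTCA in none of them (1.55%). Of the 5 starts listed for Egr2, 4 had a CArG box within this distance, and 3 of those windows overlap and hold the same box. A match is a description of the letters, and says nothing of binding in this tissue. The 4 windows below are shown because their genes had different patterns on the arrays: Egr2 and Srf, which were highest right after EPS, Nab1, whose levels differed by less than the scanner error, and Ier3, which was highest at 5 h. Nab2 also had its highest level right after EPS by both probes, and its listed window, not shown, had no match to any motif. Egr1 and Ier2, also highest right after EPS, had no listed window, so motif and pattern cannot be related here. Capitals mark CArG boxes in Egr2 and Srf, where the first capitals of Srf are GCGGGGGCG, and EGR motifs on either strand in Nab1; Ier3 had no match. The Egr2 window is chr10:67537619-67537868 (plus strand), that of Srf chr17:46556163-46556412 (minus strand), that of Nab1 chr1:52500449-52500698 (minus strand) and that of Ier3 chr17:35821463-35821712 (plus strand). Each is written 5′ to 3′ on the strand of its gene.
Egr2: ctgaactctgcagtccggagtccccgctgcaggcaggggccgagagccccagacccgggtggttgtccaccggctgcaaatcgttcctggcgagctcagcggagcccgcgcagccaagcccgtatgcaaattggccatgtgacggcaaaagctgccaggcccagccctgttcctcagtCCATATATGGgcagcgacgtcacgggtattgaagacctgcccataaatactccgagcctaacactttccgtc
Srf: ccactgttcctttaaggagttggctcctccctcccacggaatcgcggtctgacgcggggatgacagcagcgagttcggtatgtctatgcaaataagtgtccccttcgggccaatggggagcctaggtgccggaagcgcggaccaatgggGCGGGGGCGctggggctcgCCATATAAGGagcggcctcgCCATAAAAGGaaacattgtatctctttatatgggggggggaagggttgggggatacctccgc
Nab1: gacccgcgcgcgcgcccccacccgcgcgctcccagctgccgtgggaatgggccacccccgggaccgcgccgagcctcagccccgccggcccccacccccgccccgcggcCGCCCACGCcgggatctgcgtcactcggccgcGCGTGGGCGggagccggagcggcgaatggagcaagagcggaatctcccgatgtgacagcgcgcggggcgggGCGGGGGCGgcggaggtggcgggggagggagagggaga
Ier3: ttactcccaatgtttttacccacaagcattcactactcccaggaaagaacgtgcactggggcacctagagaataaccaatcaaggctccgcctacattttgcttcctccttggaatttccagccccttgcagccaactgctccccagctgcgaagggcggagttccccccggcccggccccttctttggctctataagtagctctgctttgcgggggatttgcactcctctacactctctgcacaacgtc

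The value called the level is the log2 of a probe's processed signal over the 75th percentile of all processed signals on its array, which lay between 1093 and 1491.9. Between 19164 and 19423 genes were well above background on an array, and no spot was saturated. The precision rests on single spots: among probes printed 10 times, the standard deviation between spots of the difference between 2 arrays had a median of 0.082 to 0.084 on the log2 scale. For probes with a mean level of -1 or above, its 95th percentile was 0.106 to 0.12, and for probes under -1 it was 0.422 to 0.44. The scanner software's error of such a difference was 0.20 to 0.22 for the 8 genes well above background on all arrays. It was thus nearly the same for each of these genes, and larger than the median between spots. All 10 skeletal muscle markers, embryonic myosin Myh3 and myogenin (Myog) among them, were well above background on all 4 arrays, with a summed level of 8.93 to 9.26 on the log2 scale. In the labels, the text on labelling speaks of mouse leukocytes, where the titles and the tissue field speak of engineered muscle. Of 6 leukocyte markers, Ptprc was above background nowhere, whereas Itgam, Cd68 and Cd3e were on all 4, with a summed level of 2.58 to 3.00. Of 7 fibroblast markers, 6 were well above background on all arrays (summed level 7.81 to 8.26, lowest with EPS at 5 h). The other lists were 5 endothelial markers (3 on all arrays, summed level 0.99 to 1.81, Cdh5 and Tek on none), 5 neuron and Schwann cell markers (2 on all arrays, -1.42 to -0.36) and 4 adipocyte markers (1 on all arrays, -4.84 to -2.62, Adipoq and Lep on none). The EPS array at 0 min stood apart in the last 2 lists: its adipocyte sum was -2.62 against -4.84 to -4.70 on the other arrays, with Plin1 at -3.19 there and well above background on that array alone, and its neuron and Schwann cell sum was the lowest, with Nefl at -7.90 against -4.78 to -1.48. RNA from other cells and RNA per cell cannot be told apart in bulk tissue, and their part in the results below was not tested.

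Of the 10 genes, 8 were well above background on all 4 arrays, Egr3 on the 0 min arrays alone and Egr4 on none. The 8 genes fell into different patterns by value. Egr1, Egr2, Ier2 and Srf had their highest level at 0 min after EPS and both their lower levels at 5 h. For Egr1 the order of the 0 min arrays came from the scaling, as its signals there were nearly equal before it. The same scaling, by 1362.5 without EPS and 1093 with EPS, raised the EPS difference at 0 min of every gene. For Ier2 the 0 min signals before it were 1526 ± 153 without EPS and 1747 ± 175 with EPS. Ier3 had its highest level at 5 h after EPS and its lowest in unstimulated tissue at 0 min. Ier5 was higher on both EPS arrays than on both unstimulated ones. Both Nab2 probes had their highest level at 0 min after EPS. Before scaling, the dimmer of them was brightest at 5 h after EPS (129.9, against 121.1 at 0 min after EPS). No step between the Nab1 levels exceeded the scanner error.

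**Figure D1:**
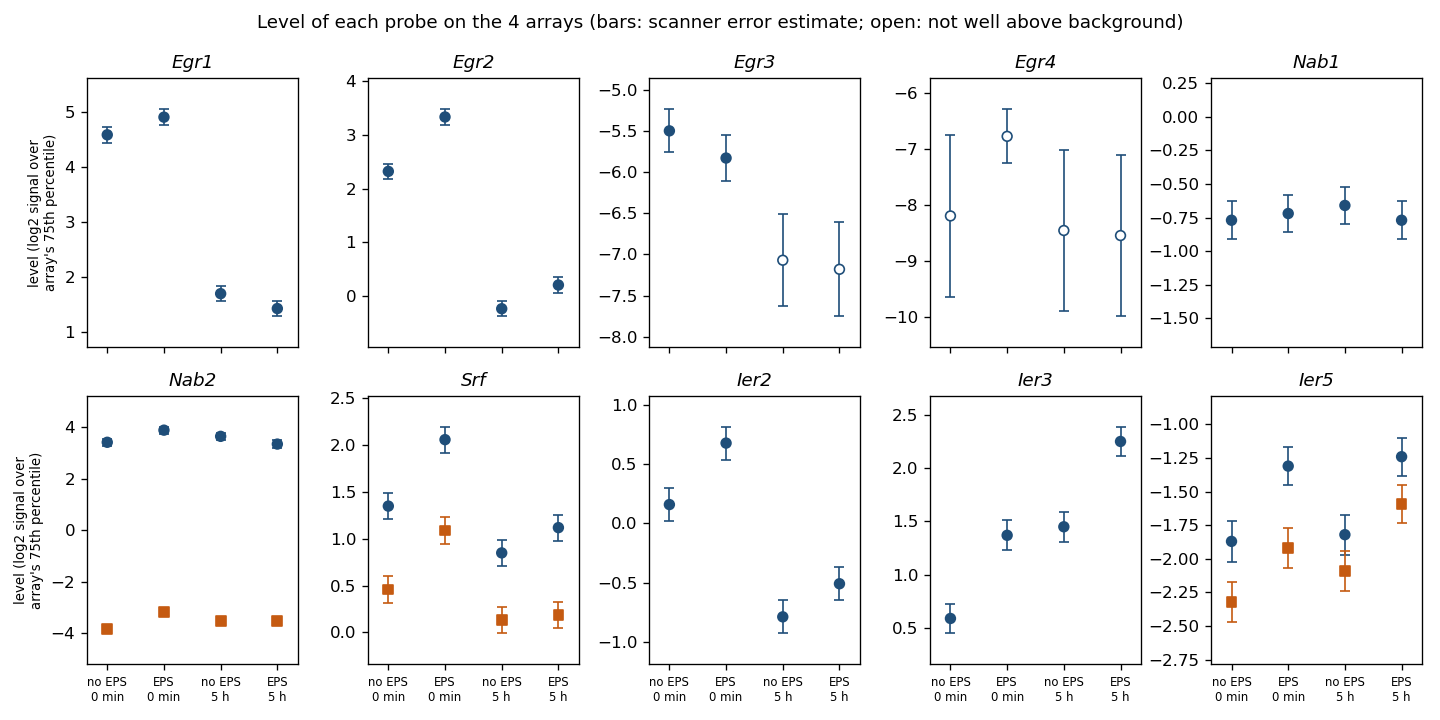
Level of each probe (y axis, log2 of the signal over the array's 75th percentile) on the 4 arrays (x axis), 1 panel per gene with its own y range. Circles are the probe used for the gene and squares a second probe, bars are the scanner software's error estimate for 1 spot, and open symbols were not well above background; Egr1 and Egr2 stand far lower at 5 h than at 0 min, whereas Ier3 is highest on the EPS array at 5 h.

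Egr1 encodes the zinc-finger factor for which the family is named. Its probe (chromosome 18, 35024395 to 35024454 on build mm9) gave a signal of 32674 ± 3267 without EPS and 32530 ± 3253 with EPS at 0 min, and of 4157 ± 416 without EPS and 4013 ± 401 with EPS at 5 h. The signals of each pair were thus nearly equal before scaling, and the pairs of the 2 times lay far apart. As levels these were 4.58 and 4.90 at 0 min, and 1.70 and 1.43 at 5 h. The difference with EPS was 0.31 ± 0.20 on the log2 scale at 0 min (1.24-fold higher) and -0.27 ± 0.20 at 5 h (1.21-fold lower). The 75th percentiles by which the 0 min signals were scaled were 1362.5 without EPS and 1093 with EPS. With quantile normalization the EPS difference at 0 min was 0.21, and with normexp background correction 0.23, both near the scanner error of 0.20. With median centring it was 0.35. Over time Egr1 was 7.39-fold lower at 5 h without EPS and 11.1-fold lower after EPS. It ranked 11 from the bottom among 18484 genes in the first of these comparisons and 5 from the bottom among 18470 in the second.

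Egr2 encodes Krox20, the EGR factor also known from Schwann cell myelination. Its probe (chromosome 10, 67004798 to 67004857) gave 6825 ± 683 without EPS and 11012 ± 1101 with EPS at 0 min, and 1095 ± 110 without EPS and 1729 ± 173 with EPS at 5 h. The EPS array was the brighter one at both times. Levels were 2.32 and 3.33 at 0 min, and -0.23 and 0.21 at 5 h. Egr2 was 2.01-fold higher with EPS at 0 min, a log2 difference of 1.01 ± 0.20 that lies at the 2-fold line and ranked 99 from the top of 18589 genes. With normexp background correction it was 0.94 and with quantile normalization 0.95, both under 2-fold, and with median centring it was 1.05. At 5 h the difference with EPS was 0.44 ± 0.20. Between 0 min and 5 h Egr2 was 5.86-fold lower without EPS and 8.69-fold lower after EPS.

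Egr3 and Egr4 were dim. The Egr3 probe (chromosome 14, 70479222 to 70479281) gave 30.05 ± 5.46 without EPS and 19.26 ± 3.71 with EPS at 0 min, and 9.532 ± 3.71 and 10.30 ± 4.06 at 5 h. Its difference with EPS at 0 min was -0.32 ± 0.38 on the log2 scale, smaller than its error, and 0.06 with normexp background correction. At 5 h Egr3 was not well above background on either array. Its 0 min levels were therefore set against the dimmest probe that was still well above background on the 5 h array. By this bound, a lower limit, Egr3 was at least 1.71-fold lower at 5 h without EPS and at least 1.46-fold lower after EPS. The bound leaves out the spot errors, so the fold could also be smaller. Measured levels were -5.50 and -5.83 at 0 min and -7.07 and -7.18 at 5 h. Egr4 (chromosome 6, 85461153 to 85461212) had signals of 3.638 to 9.946 and was not well above background on any array, so no fold is given for it.

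Nab1 and Nab2 encode the NGFI-A binding proteins, co-repressors of EGR1 and EGR2. The Nab1 probe (chromosome 1, 52515132 to 52515191) had levels of -0.77 without EPS and -0.72 with EPS at 0 min, and of -0.66 and -0.77 at 5 h. None of the steps between neighbouring levels, 0.00 to 0.06, exceeded the scanner error of 0.20, and the sign of the difference over time after EPS (-0.05) turned with median centring (0.13). The brighter Nab2 probe (chromosome 10, 127098009 to 127098068) gave 14512 ± 1451 without EPS and 16110 ± 1611 with EPS at 0 min, and 16000 ± 1600 and 15107 ± 1511 at 5 h. The 4 signals lay within the errors of one another. As levels they were 3.41 and 3.88 at 0 min, and 3.64 and 3.34 at 5 h. With EPS, this probe differed by 0.47 ± 0.20 at 0 min and by -0.30 ± 0.20 at 5 h, and the difference of the 2 was -0.77 ± 0.29 on the log2 scale. The dimmer Nab2 probe (chromosome 10, 127101413 to 127101472), designed to another transcript accession of the gene, gave 94.96 and 121.1 at 0 min and 111.5 and 129.9 at 5 h, without and with EPS. Its level differed by 0.67 ± 0.22 at 0 min and by 0.00 ± 0.21 at 5 h. Both probes were thus higher with EPS at 0 min, and they gave different values at 5 h.

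Srf encodes the factor that binds the CArG box. Both of its probes had the order EPS at 0 min, no EPS at 0 min, EPS at 5 h, no EPS at 5 h. The brighter probe, for which the array files list only an 8-base span at chromosome 17, 46683788 to 46683795, gave 3463 ± 346 without EPS and 4546 ± 455 with EPS at 0 min, and 2311 ± 231 and 3249 ± 325 at 5 h. Levels were 1.35 and 2.06 at 0 min, and 0.85 and 1.12 at 5 h. EPS minus no EPS gave 0.71 ± 0.20 at 0 min (1.64-fold higher) and 0.27 ± 0.20 at 5 h. The second probe (chromosome 17, 46685306 to 46685365) gave signals of 1868 and 2329 at 0 min and of 1402 and 1701 at 5 h, without and with EPS, and its level differed by 0.64 ± 0.20 at 0 min and by 0.06 ± 0.20 at 5 h. Over time Srf was 1.41-fold lower at 5 h without EPS and 1.91-fold lower after EPS by the brighter probe, and 1.25-fold and 1.87-fold lower by the second. Srf was thus higher with EPS at 0 min by both probes, while at 5 h the second probe's difference was smaller than its error.

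The IER genes differed among themselves. Ier2, a nuclear protein gene known as a classic serum-induced early gene, had the order seen for Srf. Its probe (chromosome 8, 87186214 to 87186273) gave 1526 ± 153 without EPS and 1747 ± 175 with EPS at 0 min, and 740.2 ± 74.1 and 1044 ± 104 at 5 h. As levels these were 0.16 and 0.68, and -0.79 and -0.51. On the log2 scale, Ier2 differed by 0.51 ± 0.20 with EPS at 0 min and by 0.28 ± 0.20 at 5 h. Ier2 was 1.94-fold lower at 5 h without EPS and 2.28-fold lower after EPS.

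Ier3, also called IEX-1, encodes a regulator of apoptosis that is known as an NF-kB target. Its probe (chromosome 17, 35959528 to 35959587) gave 2047 ± 205 without EPS and 2826 ± 283 with EPS at 0 min, and 3492 ± 349 and 7090 ± 709 at 5 h. The lowest value was that of unstimulated tissue at 0 min and the highest that of stimulated tissue at 5 h, with levels of 0.59, 1.37, 1.45 and 2.25 in the order just given. The difference with EPS was 0.78 ± 0.20 at 0 min (1.72-fold higher) and 0.80 ± 0.20 at 5 h (1.74-fold higher). The difference over time was 0.86 ± 0.20 without EPS and 0.88 ± 0.20 after EPS. EPS at 0 min and no EPS at 5 h differed by 0.08, less than the error. The EPS difference at 0 min ranked 181 from the top of 18589 genes and that at 5 h 207 of 18543.

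Ier5 encodes a partner of the heat shock factor HSF1. Its brighter probe (chromosome 1, 156945765 to 156945824) gave 373.5 ± 37.8 without EPS and 441.7 ± 44.3 with EPS at 0 min, and 362.2 ± 36.5 and 632.5 ± 63.4 at 5 h. Levels were -1.87 and -1.31 at 0 min, and -1.82 and -1.24 at 5 h, so that both EPS arrays stood above both unstimulated ones. With EPS, Ier5 differed by 0.56 ± 0.21 at 0 min and by 0.58 ± 0.21 at 5 h, and that over time 0.05 ± 0.21 without EPS and 0.07 ± 0.20 after EPS. The second probe (chromosome 1, 156943530 to 156943589) gave 272.4 and 289.7 at 0 min and 300.1 and 495.9 at 5 h, without and with EPS. Its level differed by 0.41 ± 0.21 and 0.50 ± 0.21 with EPS at the 2 times, and over time by 0.23 ± 0.21 without EPS and 0.33 ± 0.21 after EPS, so that the probes gave different values over time.

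In the comparison right after stimulation, 9 of the 10 genes could be compared and 8 of them lay above 0, as did 54.5% of all 18589 genes measured on both arrays. Only 1 of the 9, Egr2, was at least 2-fold higher, against 0.549% of all genes (0.183% of those at or above the median mean level), and none was 2-fold lower (0.791%). At least 1.5-fold higher were 3 of the 9, Egr2, Srf and Ier3, against 2.01% of all genes, and none was 1.5-fold lower (3.34%). The median of the 9 was 0.51 on the log2 scale and that of all genes 0.02. Egr1 and Nab1 stood at 0.31 and 0.04, so the 9 genes did not move as a block. Under normexp the split of all genes past 2-fold turned from 102 higher and 147 lower to 42 and 29.

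At 5 h, 8 genes could be compared with EPS. None was at least 2-fold higher (0.690% of 18543 genes) and none 2-fold lower (0.523%). At least 1.5-fold higher was 1 of the 8, Ier3 (2.06% of all genes), and none was 1.5-fold lower (2.96%). Egr2, Srf, Ier2, Ier3 and Ier5 lay above 0 and Egr1, Nab1 and Nab2 below, and 43.4% of all genes lay above 0. The median of the 8 was 0.27, and that of all genes -0.03. The 2 EPS comparisons share no array. With median centring the split of all genes past 2-fold was 161 higher and 74 lower, against 128 and 97.

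**Figure D2:**
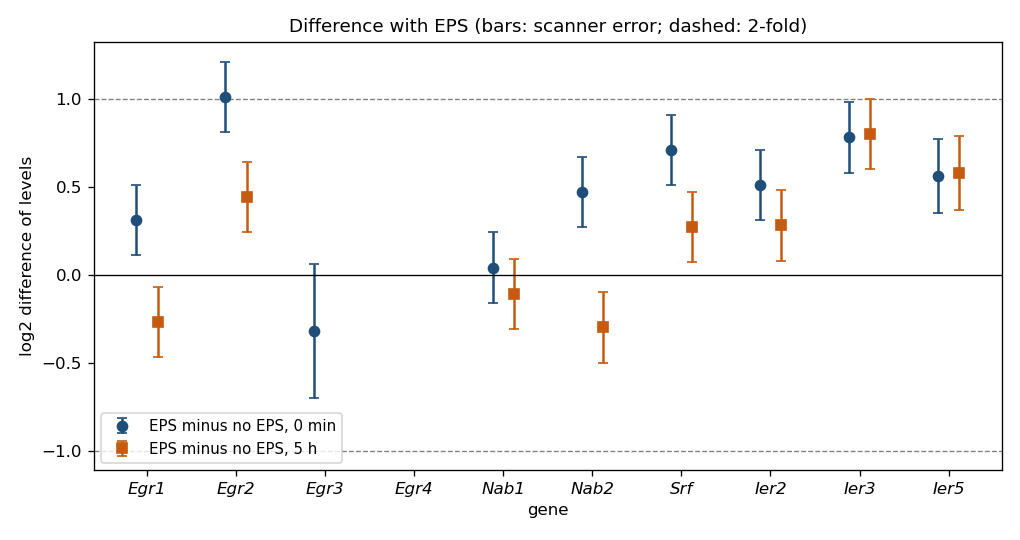
Difference of levels with EPS minus without (y axis, log2) for each gene (x axis) at 0 min (circles) and at 5 h (squares), with bars for the combined scanner error of the 2 spots and dashed lines at 2-fold; genes not well above background on both arrays have no point. Egr2 at 0 min lies at the upper line (1.01), Ier3 and Ier5 have nearly the same value at both times, and Egr1 and Nab2 lie above 0 at 0 min and below it at 5 h.

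The difference of the EPS differences, 5 h minus 0 min, was below 0 for 6 of the 8 genes and above it for Ier3 and Ier5 (both 0.02 ± 0.29), and 58.1% of all 18105 genes lay below 0. Ier3 and Ier5 lay within their error of 0 and changed sign, to -0.01 for Ier3 with normexp and to 0 for Ier5 with quantile normalization. None of the 8 reached 2-fold in either direction (1.0% of all genes upward and 0.994% downward). At 1.5-fold, 1 of the 8, Nab2, was lower (4.0% of all genes) and none higher (3.37%). Nab2 had the lowest value, -0.77 ± 0.29, followed by Egr1 (-0.58 ± 0.29) and Egr2 (-0.57 ± 0.29). With normexp the split of all genes past 2-fold was 34 upward and 73 downward, against 181 and 180.

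The size of the difference between 5 h and 0 min exceeded that of both EPS differences, with and without stimulation, for Egr1, Egr2 and Ier2, which were lower at 5 h, and by under 0.20 for Ier3, which was higher. Without EPS, 2 of 8 genes, Egr1 and Egr2, were at least 2-fold lower at 5 h, against 2.96% of 18484 genes (0.887% of those at or above the median mean level), and none was 2-fold higher (1.74%). At 1.5-fold, Ier2 joined the lower genes (3 of 8, against 9.38% of all genes), Ier3 was the 1 higher gene (6.60%), and 4 of 8 lay above 0 (47.5%). After EPS, 3 of 8, Egr1, Egr2 and Ier2, were at least 2-fold lower, against 3.64% of 18470 genes (1.47% of those at or above the median mean level), and none was 2-fold higher (2.39%). At 1.5-fold, Srf joined the lower genes (4 of 8, against 12.5%), Ier3 was again the 1 higher gene (7.90%), and 6 of 8 lay below 0 (57.5%). The member medians were -0.22 without EPS and -0.74 after it, and those of all genes -0.02 and -0.08. Each of the 2 comparisons over time shares 1 array with each EPS comparison, so these values are not independent. Median centring moved the median of all genes by over 0.1, to 0.11 without EPS and 0.10 after it, and turned the split past 2-fold from 322 higher and 547 lower to 470 and 388 without EPS, and from 442 and 673 to 736 and 414 after it. With quantile normalization the latter was 529 and 517.

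**Figure D3:**
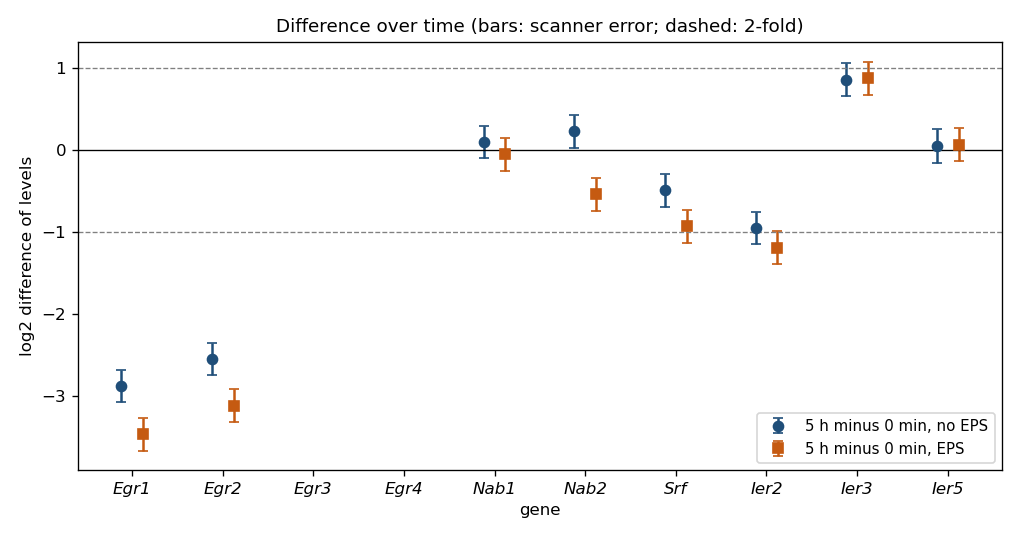
Difference of levels at 5 h minus 0 min (y axis, log2) for each gene (x axis) without EPS (circles) and after EPS (squares), with bars for the combined scanner error and dashed lines at 2-fold. Egr1 (-2.88 and -3.47) and Egr2 (-2.55 and -3.12) lie far below the other genes, and Ier3 is the one gene near the upper line.

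Other genes of the route are given by lists, which were chosen with earlier results of these data known. Right after EPS all 18 of the other immediate early genes lay above 0, against 54.5% of all genes, with a median of 0.59. Of the 18, 7 were at least 2-fold higher (0.549% of all genes) and none 2-fold lower (0.791%). The synaptic gene Arc had the largest difference (2.12), followed by the orphan receptor Nr4a1 (1.55) and the matricellular Ccn1 (1.34). At 5 h, 12 of the 18 lay above 0 (43.4% of all genes) with a median of 0.08, and 1, Arc (1.40), was 2-fold higher (0.690%); the transcription factor genes Atf3 (0.84) and Fosb (0.77) came next. The IER relative Ier5l was 2.48-fold higher with EPS at 0 min, with levels of 1.80 without and 3.11 with EPS, and differed by 0.07 at 5 h.

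Of 14 ERK pathway genes upstream, 8 lay above 0 at 0 min (54.5% of all genes) and 9 at 5 h (43.4%), with medians of 0.03 and 0.05. None was 2-fold higher at 0 min (0.549% of all genes) or at 5 h (0.690%), and none 2-fold lower (0.791% and 0.523%). The kinase genes Rps6ka1 (0.70), Rps6ka5 (0.50) and Map2k2 (0.13) had the largest differences at 0 min, and Egfr (0.73) and Mapk3 (-0.28) at 5 h. Of 7 SRF cofactor genes, 6 were measured and Myocd was not well above background on any array. Of the 6, 4 lay above 0 at 0 min (54.5% of all genes) and 4 at 5 h (43.4%), with medians of 0.02 and 0.06. None was 2-fold higher (0.549% of all genes at 0 min and 0.690% at 5 h) and none 2-fold lower (0.791% and 0.523%). The LIM protein gene Fhl2 (0.48 at 0 min) and the ternary complex factor gene Elk3 (0.51 at 5 h) differed most.

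Downstream, all 13 cytoskeletal and muscle genes that SRF and its MRTF cofactors are known to drive lay above 0 at 0 min (54.5% of all genes). At 5 h 4 of 13 did (43.4%), and the medians were 0.13 and -0.09. None was 2-fold higher (0.549% of all genes at 0 min and 0.690% at 5 h) or 2-fold lower (0.791% and 0.523%). Calponin (Cnn1) had the largest difference at both times (0.82 and 0.98), at dim levels of -5.82 to -4.56, whereas skeletal actin (Acta1) differed by 0.24 and 0.04. Of 15 reported EGR targets, 14 were measured, 10 above 0 at 0 min (54.5% of all genes) and 8 at 5 h (43.4%). Their medians were 0.10 and 0.19, and none reached 2-fold, beside the same shares of all genes. The stress cytokine gene Gdf15 differed by 0.63 and 0.50, tissue factor (F3) by 0.41 and -0.49, and Igf2 by -0.44 and -0.40. Fgf2 differed by 0.61 at 5 h. Of 10 genes of HSF1 and its targets, 9 were measured, with medians of 0.46 and 0.05. Of these 2 were at least 2-fold higher at 0 min, Hspa1a (2.36) and Dnajb1 (1.80), against 0.549% of all genes, and 1 at 5 h, Hspa1a (2.05), against 0.690%.

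**Figure D4:**
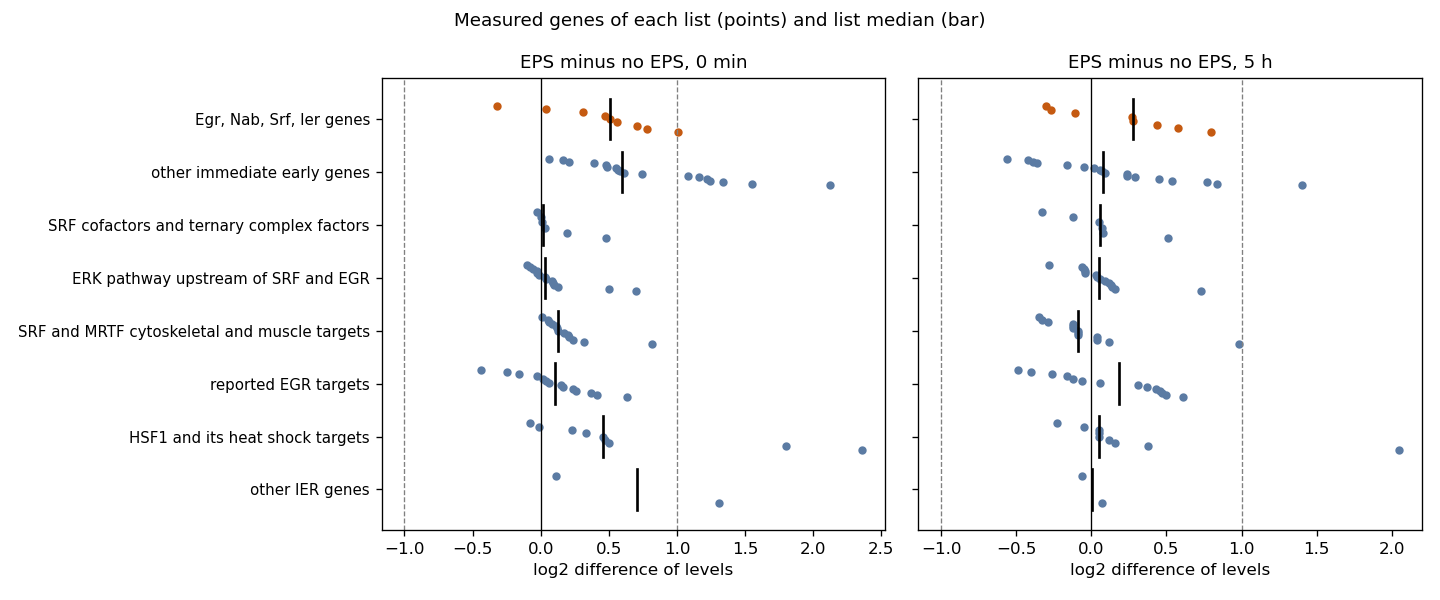
Difference of levels with EPS minus without (x axis, log2) for each measured gene (points) of 8 lists (y axis) at 0 min (left) and at 5 h (right), with a bar at each list's median and dashed lines at 2-fold. At 0 min the Egr, Nab, Srf and Ier genes (median 0.51) lie near the other immediate early genes (0.59), and the ERK pathway genes (0.03) near 0.

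The genes with the most similar pattern were found by the root mean square distance between levels centred on each gene's mean over the 4 arrays, among 12404 other named genes measured on all 4. The nearest to Egr2 were Fos (0.17), the AP-1 subunit gene, and Ccn1 (0.286), both also immediate early genes. Galntl2, which is on none of the lists, came next (0.385), at levels of -3.62 to -0.99. Fos had levels of 0.16 without EPS and 1.40 with EPS at 0 min, and of -1.93 and -1.84 at 5 h. Nearest to Egr1 stood Htr7, a serotonin receptor gene (0.174), with Unc93a next (0.266), and Egr2 lay at 0.391 from Egr1. The nearest to Srf were Nfkbia (0.055), which encodes the NF-kB inhibitor IkB-alpha, Ppp1r10 (0.074) and the dim Zcwpw2 (0.074, levels of -5.62 to -4.59). Ier2 lay at 0.192 from Srf. The nearest to Ier2 was the growth arrest gene Gadd45g (0.05), to Ier3 the sphingomyelin synthase gene Sgms2 (0.051), to Ier5 the retinoic acid hydroxylase gene Cyp26b1 (0.01), to Nab2 Cnnm3 (0.035) and to Nab1 Trem1 (0.005). The distance is not scaled by the size of a gene's differences. A small distance for a flat gene such as Nab1, whose steps were all under the scanner error, is therefore not a closer likeness than that of Egr2 and Fos. With 4 arrays such a distance is a description of these arrays.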

How the data were processed

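RNA of 4 engineered muscle groups was hybridised to 1 single-colour Agilent array each. The deposited values are spot intensities from Feature Extraction 10.7.3.1, per the file headers: background-subtracted and detrended, with surrogates in place of the dimmest values, and probe positions on mm9. Flags and error estimates are those of the scanner software. The deposited value table of the series equalled the processed signal within 0.01% for all 44397 spots of each array. The file headers define the flags in other columns, which were used as deposited.

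Signals were scaled to each array's 75th percentile over 43020 spots that are not controls, after which 112 to 141 outlier spots per array were left out, and log2 was taken. Spots of 1 probe were averaged and a gene took the probe with the highest mean level. Among 39429 probes, 26055 were named through RefSeq accessions (GRCm38.p6, names only). Errors of differences combine the software's spot errors in quadrature. No test was run, with 1 array a group. The 5 comparisons used genes well above background on every array compared. Scripts used Python 3.11.15, pandas 2.3.3, numpy 2.4.6 and limma 3.58.1 (normexp), and were tested on simulated data. Genes named beside the 10 were the 3 largest EPS differences per list and time and the 3 nearest patterns per gene, of which some are printed. A few genes of the lists are not reported here. Alternatives were other background correction, scaling, dim filters, probe rule and fold. The members and lists were chosen with earlier results of these data known.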

Additional observations from a re-analysis of the deposited data

Results flagged for a closer look

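Some genes had differences of opposite sign under 1 contrast in 2 groups. With EPS, Egr1 differed by 0.31 at 0 min and by -0.27 at 5 h, Nab1 by 0.04 and -0.11, and Nab2 by 0.47 and -0.30. Over time, Nab1 differed by 0.10 without EPS and by -0.05 after EPS, and Nab2 by 0.23 and -0.54. Whether the members of each pair differ was not tested, since each group had 1 array. The Nab1 values are all smaller than the scanner error of 0.20.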

How the results depend on the processing

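Of 80 counts of members past the fold rule under other settings, 69 were equal to the count of the report or within 1.5 times of it. The number at least 2-fold higher with EPS at 0 min, 1 in the report, was 0 with normexp and with quantile normalization, 2 without a filter on dim genes, where Egr4 joins, and 3 at 1.5-fold. At 1.5-fold, 1 gene was higher with EPS at 5 h, 1 higher over time without EPS, 1 higher over time after EPS and 1 lower in the difference of EPS differences, where the report has 0 each. With median centring, 1 gene (Ier3, 1.06) was higher over time after EPS. Without a filter, 5 genes were lower over time after EPS, against 3, and 1 lower in the difference of EPS differences; the added genes are Egr3 and Egr4 in the former and Egr4 in the latter, both not well above background at 5 h. Of 286 differences of single members, 248 moved by no more than the median spot error and 4 changed sign (Egr3, Nab1, Ier3 and Ier5, each in 1 comparison and within its error of 0).

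Over all genes, normexp gave 42 higher and 29 lower with EPS at 0 min (102 and 147 in the report), 43 and 31 at 5 h (128 and 97), 186 and 226 over time without EPS (322 and 547), 255 and 341 after EPS (442 and 673), and 34 and 73 for the difference of EPS differences (181 and 180). The 1.5-fold rule gave 374 and 621, 382 and 548, 1220 and 1734, 1459 and 2306, and 610 and 725. Without a filter on dim genes the counts were 1074 and 1172, 1085 and 1445, 1234 and 1877, 1396 and 2541, and 1861 and 2117. With genes above background on at least 1 array they were 497 and 527, 477 and 550, 746 and 1024, 858 and 1316, and 849 and 988. No paired analysis was possible because each group had 1 array. Egr4 was well above background on no array and Egr3 on the 0 min arrays alone, and variation between tissues was not estimated for any gene.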
